A study of Mus musculus with 12 samples.

Results

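Collagens are the triple-helical structural proteins of the extracellular matrix, and their genes were compared here in mouse mammary tumors under chemotherapy, checkpoint blockade or both. Every gene whose symbol reads Col, a number, the letter a and a number was taken, which gave 44 of the 21960 genes listed in each tumor. By the structures that their proteins build, these were 11 fibrillar collagens, 6 basement membrane collagens, 9 FACIT collagens and 2 multiplexins, next to 6 beaded filament, 3 short-chain network, 1 anchoring fibril and 4 transmembrane collagens and 2 that were left unclassified. RNA of 12 whole, snap-frozen tumors from female C57BL/6 mice, 3 tumors in each of 4 groups, was sequenced. Reads were taken from 1 end (Illumina NextSeq, SMARTer stranded total RNA kit). All mice carried the polyoma middle T oncogene (PyMT) under the MMTV promoter, which is active mainly in mammary epithelium. The IgG1 group received a control antibody and the anti-PD-1 group received antibody 4H2 against the T cell checkpoint receptor PD-1. In these groups treatment began at a tumor diameter of 0.6 cm, with a first antibody dose of 20 mg/kg and later doses of 10 mg/kg. The DOX/IgG1 and DOX/anti-PD-1 groups received doxorubicin, a cytostatic anthracycline, at 5 mg/kg every week together with the same antibodies at 10 mg/kg, beginning at a diameter of 1 cm. The sources differ on the schedule without doxorubicin, since the labels name 5 weeks for each group while the paper has antibody on days 0, 6, 12 and 18 there, and weekly dosing over 5 weeks with doxorubicin. Doxorubicin, the diameter at the start, the first antibody dose and, by the paper, the interval and duration of dosing differ together between the groups, and their parts in any doxorubicin comparison cannot be told apart.

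Each collagen molecule is a triple helix of chains, which can be copies of a single chain or products of different genes, and the class of a collagen follows from how its helices assemble. Fibrillar collagens form the load-bearing fibers of the stroma, type IV collagens form the network of the basement membrane under epithelium and endothelium, FACIT collagens (fibril-associated collagens with interrupted triple helices) sit on the surface of fibers, and multiplexins lie between basement membrane and stroma and can release an endostatin-type fragment. In mammary tumors fibroblasts are a major source of fibrillar collagen, while basement membrane chains are also made by epithelial, endothelial and perivascular cells.

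Values are TPM, transcript levels scaled to the length of the transcript and to a fixed sum per library, so levels can be compared between genes. In lists of values, the tumors of a group stand in the order of replicates 1 to 3. Read counts were not at hand, and the sequencing depth of each tumor is not known. The listed genes summed to between 609418 and 725506 TPM per tumor. Markers of luminal and tumor epithelium (6 of 6 listed, Epcam the most abundant) summed to between 2039.5 and 3675 TPM per tumor. DOX/IgG1 replicate 1 stood apart from the other tumors. It had the lowest median correlation with them (0.884), a score of 88.1 on the second principal component (15.0% of the variance) where the others lay between -22.0 and 18.1, and 8104 genes listed at 0 where the others had between 6534 and 7730. In the deposited data its column heading alone carries the added word test, whose meaning is not given in the sources used here. On the first component (19.4% of the variance) DOX/IgG1 replicates 2 and 3 and DOX/anti-PD-1 replicate 3 had scores of 53.2, 55.1 and 48.2 where the others lay between -41.5 and 8.2, and these 3 tumors were also the highest in Col27a1 and Col23a1. DOX/anti-PD-1 replicate 3 had a median correlation of 0.888 with the other tumors. Calls that rest on DOX/IgG1 replicate 1 are given with and without it. In the doxorubicin effect, the difference between doxorubicin and no doxorubicin over all 12 tumors, the median of all 14735 tested genes was 0.12 on the log2 scale, and median-of-ratios scaling, which sets the typical gene to no difference, brought it to 0.02, a shift of -0.10. Class medians are therefore given beside the median of all genes tested.

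Collagen transcripts summed to between 1925 and 3654 TPM per tumor, or 0.284% to 0.531% of the listed total. Of the 44 genes, 9 had a mean over the 12 tumors of at least 100 TPM, 15 lay from 10 to 100 TPM, 15 from 1 to 10 TPM and 5 below 1 TPM. Of all 21960 listed genes, 1360 reached a mean of 100 TPM and 7906 stayed below 1 TPM. The most abundant collagen was Col4a1, at a mean of 457 TPM, followed by Col1a1 at 358 and Col3a1 at 332 TPM. This order varied from tumor to tumor, since Col4a1 ranged from 257 to 621 TPM and Col1a1 from 132 to 745 TPM. Fibrillar collagens made up on average 45.2% of collagen TPM, basement membrane collagens 27.2%, FACIT collagens 13.7%, beaded filament collagens 6.45% and multiplexins 3.40%.

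Summed levels of the classes are given for each tumor, and no test was made between classes. Summed multiplexin transcripts were at 84.6, 78.3 and 89.4 TPM in the IgG1 tumors, 46.9, 46.0 and 52.6 TPM in the anti-PD-1 tumors, 107, 115 and 89.4 TPM in the DOX/IgG1 tumors and 155, 120.2 and 151 TPM in the DOX/anti-PD-1 tumors. All 3 anti-PD-1 tumors lay below every other tumor and the 3 DOX/anti-PD-1 tumors lay above every other tumor, while the IgG1 and DOX/IgG1 ranges overlapped, with IgG1 replicate 3 just above DOX/IgG1 replicate 3. Summed FACIT transcripts were at 446, 476 and 401 TPM in the IgG1 tumors, 439, 474 and 396 TPM in the anti-PD-1 tumors, 216, 237 and 317 TPM in the DOX/IgG1 tumors and 331, 555 and 302 TPM in the DOX/anti-PD-1 tumors. The 3 DOX/IgG1 tumors and DOX/anti-PD-1 replicates 1 and 3 lay below all 6 tumors without doxorubicin, and DOX/anti-PD-1 replicate 2 lay above all of them. The basement membrane sum was 759, 483 and 855 TPM in the IgG1 tumors, 653, 576 and 486 TPM in the anti-PD-1 tumors, 949.5, 751 and 868 TPM in the DOX/IgG1 tumors and 959, 768 and 971 TPM in the DOX/anti-PD-1 tumors, and the ranges with and without doxorubicin overlapped through IgG1 replicates 1 and 3. The fibrillar sum was 1511, 1284 and 1923 TPM in the IgG1 tumors, 1159, 1176 and 779 TPM in the anti-PD-1 tumors, 806, 1179 and 1057 TPM in the DOX/IgG1 tumors and 1069.8, 1526 and 1631 TPM in the DOX/anti-PD-1 tumors, lowest in anti-PD-1 replicate 3 and highest in IgG1 replicate 3, with overlap of the doxorubicin and no doxorubicin ranges. On the log2 scale, the mean sum with doxorubicin over the mean without it was 0.89 for multiplexins, 0.47 for basement membrane, -0.11 for fibrillar and -0.43 for FACIT collagens, and these kept their sign with median-of-ratios scaling. Leaving out tumors, done after the values were seen, turned the fibrillar value to 0.04 without IgG1 replicate 3 and brought it to -0.01 without DOX/IgG1 replicate 1, and the FACIT value was -0.33 without DOX/IgG1 replicate 1 and -0.64 without DOX/anti-PD-1 replicate 2. For all 44 genes together it was 0.05, which turned to -0.06 with that scaling, -0.03 without anti-PD-1 replicate 3 and -0.01 without DOX/anti-PD-1 replicate 3. In bulk tumors, fewer cells of a type and less RNA per cell cannot be told apart, and this holds for every level given here.

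**Figure D1:**
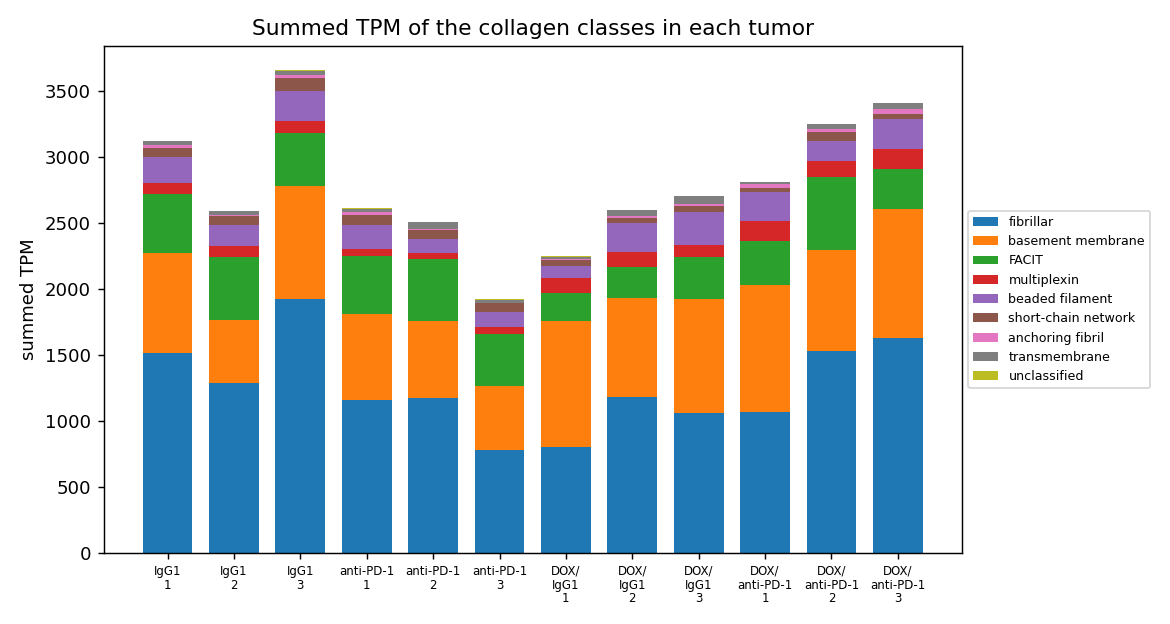
Summed TPM of the collagen classes (stacked bars, 1 bar per tumor, replicate number under the group name). The multiplexin segment is smallest in the 3 anti-PD-1 tumors and largest in the 3 DOX/anti-PD-1 tumors, and the FACIT segment is small in the 3 DOX/IgG1 tumors and in DOX/anti-PD-1 replicates 1 and 3.

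With doxorubicin, the fibrillar collagen gene Col27a1 rose, both multiplexin genes and all 6 basement membrane genes (4 with median-of-ratios scaling) had higher mean levels, and the FACIT genes Col9a1, Col9a2 and Col12a1 had lower mean levels, while Col16a1, the most abundant FACIT gene, had a higher one. Genes with 1 TPM or more in 3 or more tumors of a comparison were tested, and a gene was called when the adjusted p of limma (two-sided, Benjamini-Hochberg over all genes tested) was below 0.1 and the difference of mean log2(TPM + 1), given as the log2 fold change, was above 1 in size. This scale understates the change of low genes. Over all 12 tumors 40 of the 44 collagens were tested. limma called 1 of them, beside 0.0204% of all 14735 genes tested. The count was 4 without DOX/IgG1 replicate 1 (Col27a1, Col23a1, Col12a1 and Col4a3) and 4 without DOX/anti-PD-1 replicate 2 (Col27a1, Col8a1, Col9a2 and Col12a1), and it was 0 without IgG1 replicate 2 or 3, anti-PD-1 replicate 1 or 2, DOX/IgG1 replicate 2 or 3, or DOX/anti-PD-1 replicate 3. The share of all genes called in these fits is not given here, so these counts cannot be set against that of other genes. Each tumor was left out in turn as planned, and a call gained without a tumor whose own value goes against the difference is conditioned on that value, so such calls show dependence on the tumor and are not taken as results. At an unadjusted p below 0.05 there were 7 collagens with higher and 6 with lower levels, beside 8.82% and 3.16% of all genes tested. The 6 doxorubicin tumors lay above the 6 others for 1 collagen, Col27a1, and below them for 0, beside 0.597% and 0.122% of all genes tested. The median over the 40 collagens was 0.13, beside 0.12 over all genes, and with median-of-ratios scaling both were 0.02.

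Split by class, the medians of the doxorubicin effect lay on either side of that of all genes. The 2 multiplexins had a median of 0.82, and both had an unadjusted p below 0.05. The 6 basement membrane genes had a median of 0.42, with 2 at an unadjusted p below 0.05, all higher. This median includes Col4a3, which reached 1 TPM in 7 tumors. Of these only IgG1 replicate 2 and anti-PD-1 replicate 2 were without doxorubicin, so Col4a3 was tested only because of the side where it is higher. With median-of-ratios scaling 4 of the 6 stayed higher, and Col4a5 and Col4a6 turned lower. The 11 fibrillar genes had a median of 0.02, with 6 higher and 5 lower, which turned to -0.09 with 4 higher and 7 lower under that scaling. At an unadjusted p below 0.05, 2 were higher (Col27a1 and Col5a3) and 1 was lower, Col24a1, which reached 1 TPM in 4 tumors, all without doxorubicin, and so met the minimum from that side alone. The 7 tested FACIT genes had a median of -0.36, with 0 at an unadjusted p below 0.05 higher and 3 lower, and Col14a1 turned from higher to lower under that scaling. Medians of the other classes were 0.30 for 5 beaded filament, -0.12 for 3 short-chain network and 0.30 for 4 transmembrane genes. No test of the classes against each other was made.

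**Figure D2:**
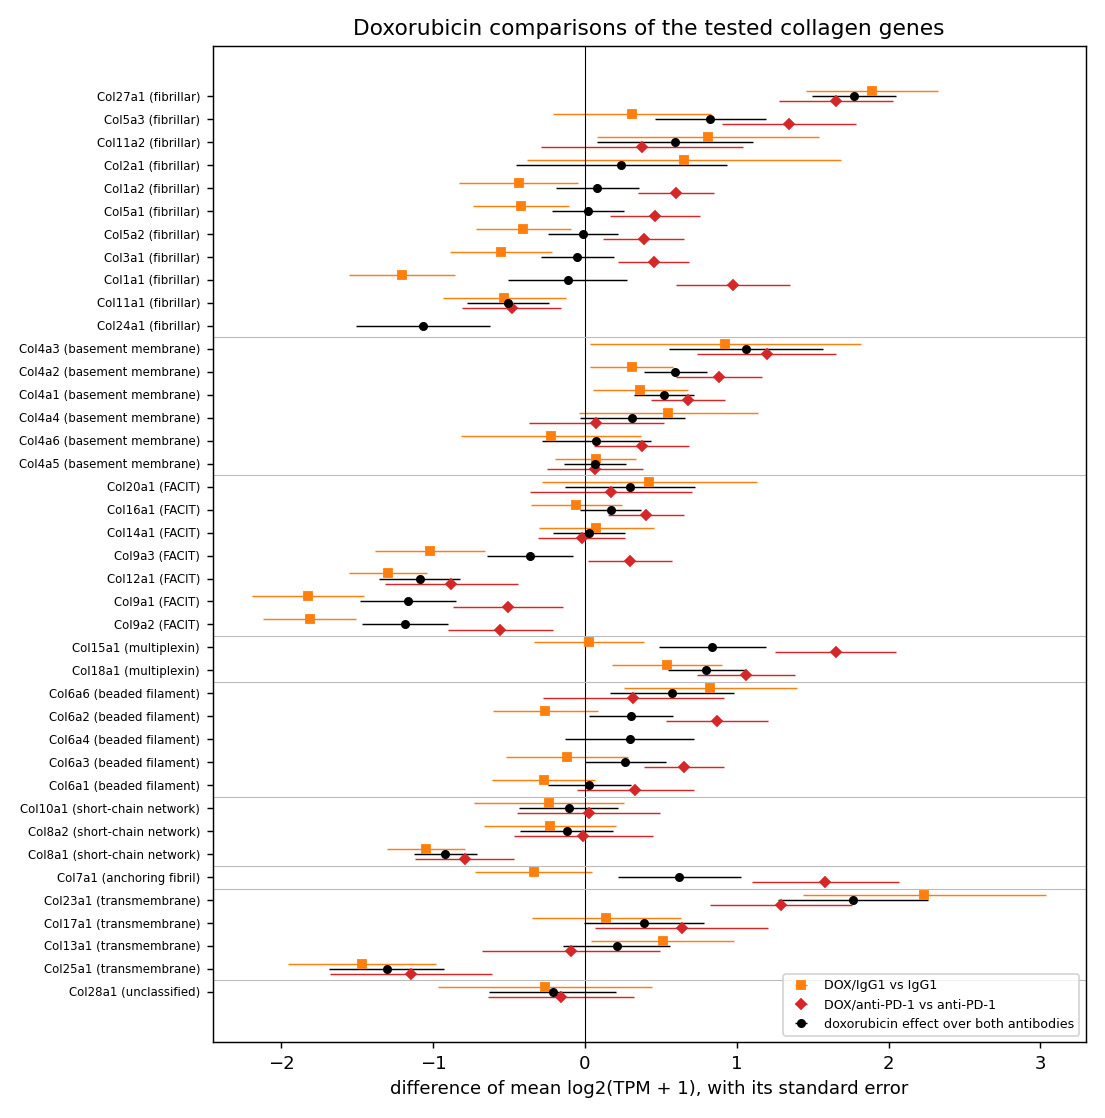
Difference of mean log2(TPM + 1) (horizontal axis, points with standard error) of each tested collagen gene, grouped by class, for DOX/IgG1 against IgG1 (squares), DOX/anti-PD-1 against anti-PD-1 (diamonds) and the doxorubicin effect over 12 tumors (circles). Col27a1 and Col23a1 lie farthest to the right in the doxorubicin effect and Col25a1 farthest to the left, and the FACIT genes Col9a1, Col9a2 and Col12a1 lie left of 0 in all 3 comparisons.

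Within each antibody, the doxorubicin comparison took other values in the 4 main classes. In DOX/IgG1 against IgG1, limma called 0 of 38 tested collagens, beside 0.0360% of all 13874 genes tested. At an unadjusted p below 0.05, 2 collagens were higher and 7 lower, beside 5.03% and 2.70% of all genes, and the collagen median was -0.17 beside 0.12. The FACIT class held 4 of the 7 lower genes (Col9a1, Col9a2, Col9a3 and Col12a1) and had a median of -1.02, while the medians of the fibrillar, basement membrane and multiplexin classes were -0.41, 0.34 and 0.28. With median-of-ratios scaling Col14a1, Col15a1 and Col4a5 turned from slightly higher to slightly lower. Among cell type markers in this comparison, luminal epithelium was lower for 5 of 6 (median -0.23, Epcam -0.87). Fibroblast markers were higher for 5 of 6 (median 0.13) with Postn at -1.06, and with median-of-ratios scaling for 3 of 6 (median 0.03). Salivary genes were higher for 4 of 4 tested (median 2.87), which includes Bpifa2 and Smr3a, at 0 in the IgG1 tumors. The part of these cells was not tested. In DOX/anti-PD-1 against anti-PD-1, limma called 0 of 37 tested collagens, and 0% of all 13736 genes tested. Here 13 collagens were higher and 1 lower at an unadjusted p below 0.05, beside 6.30% and 2.33% of all genes, and the collagen median was 0.37 beside 0.11. The higher genes were 4 of 9 fibrillar, 3 of 6 basement membrane, 2 of 2 multiplexin, 2 of 4 beaded filament, 1 anchoring fibril and 1 of 4 transmembrane genes, and 0 of 7 FACIT genes. Of these Col4a3 reached 1 TPM in the 3 DOX/anti-PD-1 tumors and 1 anti-PD-1 tumor, so that it was tested only because of the group where it is higher. Class medians were 0.46 for fibrillar, 0.53 for basement membrane, 1.36 for multiplexin and -0.02 for FACIT genes, and Col4a5 and Col10a1 turned from slightly higher to slightly lower with that scaling. Markers of several cell types were also higher in this comparison. Medians were 1.43 for adipocytes and 0.64 for fibroblasts (6 of 6 higher each), 0.54 for pericytes and 0.41 for basal epithelium (5 of 6 each). With median-of-ratios scaling 4 of 6 fibroblast markers (median 0.53) and 6 of 6 adipocyte markers (1.33) were higher. With that scaling 4 of 6 endothelial markers were higher (median 0.075) and 5 of 6 luminal markers lower (median -0.22). Krt19, a luminal marker, was at 0.99 without it. Of the adipocyte, fibroblast and pericyte markers, 4 of 6, 2 of 6 and 2 of 6 had an unadjusted p below 0.05, as did Oxtr of the basal markers. The adipocyte marker Lep met the minimum in the same one-sided way. The part of these cells in the collagen values was not tested. Without DOX/IgG1 replicate 1, limma called 4 collagens in DOX/IgG1 against IgG1, which were Col23a1 (log2 fold change 3.29), Col27a1 (2.24), Col9a2 (-1.60) and Col12a1 (-1.48). Without DOX/anti-PD-1 replicate 2 it called 1, Col15a1, in DOX/anti-PD-1 against anti-PD-1 (2.17), which leaves 2 tumors in that group. The share of all genes called in these fits is not given here either. Apart from that of Col9a2, these calls, too, are conditioned on the values of the tumor left out. For Col9a2, DOX/IgG1 replicate 1 was the lowest of its group (13.0 TPM beside 19.0 and 22.9) and goes with the difference. This call, too, shows dependence on the tumor and is not taken as a result.

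Among fibrillar collagens, Col1a1 and Col1a2, the chains of type I collagen, Col3a1 of type III collagen, Col5a2 and Col11a1 had means above 100 TPM. Col27a1, whose protein forms thin fibrils and is best known from cartilage (ENSMUSG00000045672, chr4:63214004-63334991 on the plus strand of GRCm38), was low, with a mean of 9.11 TPM. It was at 5.29, 2.92 and 3.15 TPM in the IgG1 tumors, 2.30, 2.62 and 4.88 TPM in the anti-PD-1 tumors, 9.60, 21.6 and 20.7 TPM in the DOX/IgG1 tumors and 10.1, 12.5 and 13.6 TPM in the DOX/anti-PD-1 tumors. Every doxorubicin tumor lay above every tumor without doxorubicin, the lowest being DOX/IgG1 replicate 1 and the highest of the others IgG1 replicate 1. Group means were 3.79 ± 1.31 (SD, n = 3) TPM with IgG1, 3.27 ± 1.41 with anti-PD-1, 17.3 ± 6.69 with DOX/IgG1 and 12.1 ± 1.79 with DOX/anti-PD-1. In the doxorubicin effect Col27a1 rose by 1.77 ± 0.28 (SE) on the log2 scale, with an adjusted p of 0.0642 by limma and rank 3 of 14735 genes by p. The two-sided exact permutation test within antibody groups gave p = 0.005, the smallest it can give. Col27a1 was picked for its small limma p in the same tumors, so the exact p is not separate support. Within the arms the log2 fold changes were 1.89 ± 0.43 (adjusted p = 0.460) with IgG1 and 1.65 ± 0.37 (adjusted p = 0.429) with anti-PD-1, and the interaction was -0.23 ± 0.57 (adjusted p = 0.993). The call depended on the set of tumors. Leaving out a single tumor ended it for IgG1 replicates 2 and 3 (adjusted p = 0.253 and 0.156), anti-PD-1 replicates 1 and 2 (0.142 and 0.131), DOX/IgG1 replicates 2 and 3 (0.114 and 0.197) and DOX/anti-PD-1 replicate 3 (0.150), and without DOX/IgG1 replicate 1 the adjusted p was 0.0141. It also ended without a minimum level (0.156) and without a mean-variance trend (0.105). Over all alternatives the adjusted p ranged from 0.0141 to 0.253 and the log2 fold change from 1.67 to 2.02.

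Col1a1, the main chain of type I collagen and the most abundant fibrillar gene, followed another pattern. It was at 432, 527 and 745 TPM in the IgG1 tumors, 238, 234 and 132 TPM in the anti-PD-1 tumors, 149, 339 and 274 TPM in the DOX/IgG1 tumors and 219.6, 488 and 525 TPM in the DOX/anti-PD-1 tumors. The 3 anti-PD-1 tumors lay below the 3 IgG1 tumors, the DOX/IgG1 tumors also lay below them, and the DOX/anti-PD-1 tumors overlapped the IgG1 range only through replicates 2 and 3. Its mean was 568 ± 161 (SD, n = 3) TPM with IgG1, 201 ± 59.8 with anti-PD-1, 254 ± 96.8 with DOX/IgG1 and 411 ± 167 with DOX/anti-PD-1. The log2 fold change was -1.50 ± 0.30 (SE) for anti-PD-1 against IgG1, with an unadjusted p of 5.84e-04 and an adjusted p of 0.564 by limma, and -1.20 ± 0.35 for DOX/IgG1 against IgG1 (adjusted p = 0.494). These comparisons share the IgG1 tumors. Over 12 tumors the doxorubicin effect was -0.11 ± 0.39, while the arms had opposite signs (-1.20 with IgG1 and 0.97 with anti-PD-1). The interaction, which tests that difference, was 2.18 ± 0.56 (unadjusted p = 0.00163, adjusted p = 0.993). The partner chain Col1a2 was at 188, 168 and 299.7 TPM in the IgG1 tumors, 222, 141 and 138 TPM in the anti-PD-1 tumors, 85.4, 222 and 199.6 TPM in the DOX/IgG1 tumors and 226, 238 and 283 TPM in the DOX/anti-PD-1 tumors, and its IgG1 and anti-PD-1 tumors overlapped. The ratio of Col1a1 to Col1a2 was 2.30, 3.14 and 2.49 in the IgG1 tumors, 1.07, 1.66 and 0.957 in the anti-PD-1 tumors, 1.74, 1.53 and 1.37 in the DOX/IgG1 tumors and 0.970, 2.05 and 1.86 in the DOX/anti-PD-1 tumors. The 3 IgG1 tumors had the 3 highest ratios of the 12.

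Col5a2, a chain of the type V collagen that regulates fibril diameter, was among the 3 collagens with the smallest p in the anti-PD-1 effect over both chemotherapy arms. It was at 108, 70.7 and 148 TPM in the IgG1 tumors, 128, 106 and 80.9 TPM in the anti-PD-1 tumors, 63.4, 75.7 and 99.9 TPM in the DOX/IgG1 tumors and 115, 118 and 181 TPM in the DOX/anti-PD-1 tumors. The 3 DOX/anti-PD-1 tumors lay above the 3 DOX/IgG1 tumors, while anti-PD-1 and IgG1 tumors overlapped. Its anti-PD-1 effect was 0.38 ± 0.23 (SE) with an adjusted p of 0.999 by limma, and its doxorubicin effect was -0.01. Of the other fibrillar genes, Col3a1 ranged from 168 to 492 TPM, Col11a1 from 108 to 378, Col5a1 from 12.3 to 28.2 and Col5a3 from 2.51 to 18.1 TPM. Col11a1, Col11a2 and Col2a1 encode collagens known from cartilage. Col11a2 did not exceed 9.65 TPM, and Col2a1 was listed at 0 in 4 tumors and reached 17.8 TPM in DOX/IgG1 replicate 1. Col24a1 was at most 5.23 TPM and was listed at 0 in 2 tumors, both with doxorubicin.

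**Figure D3:**
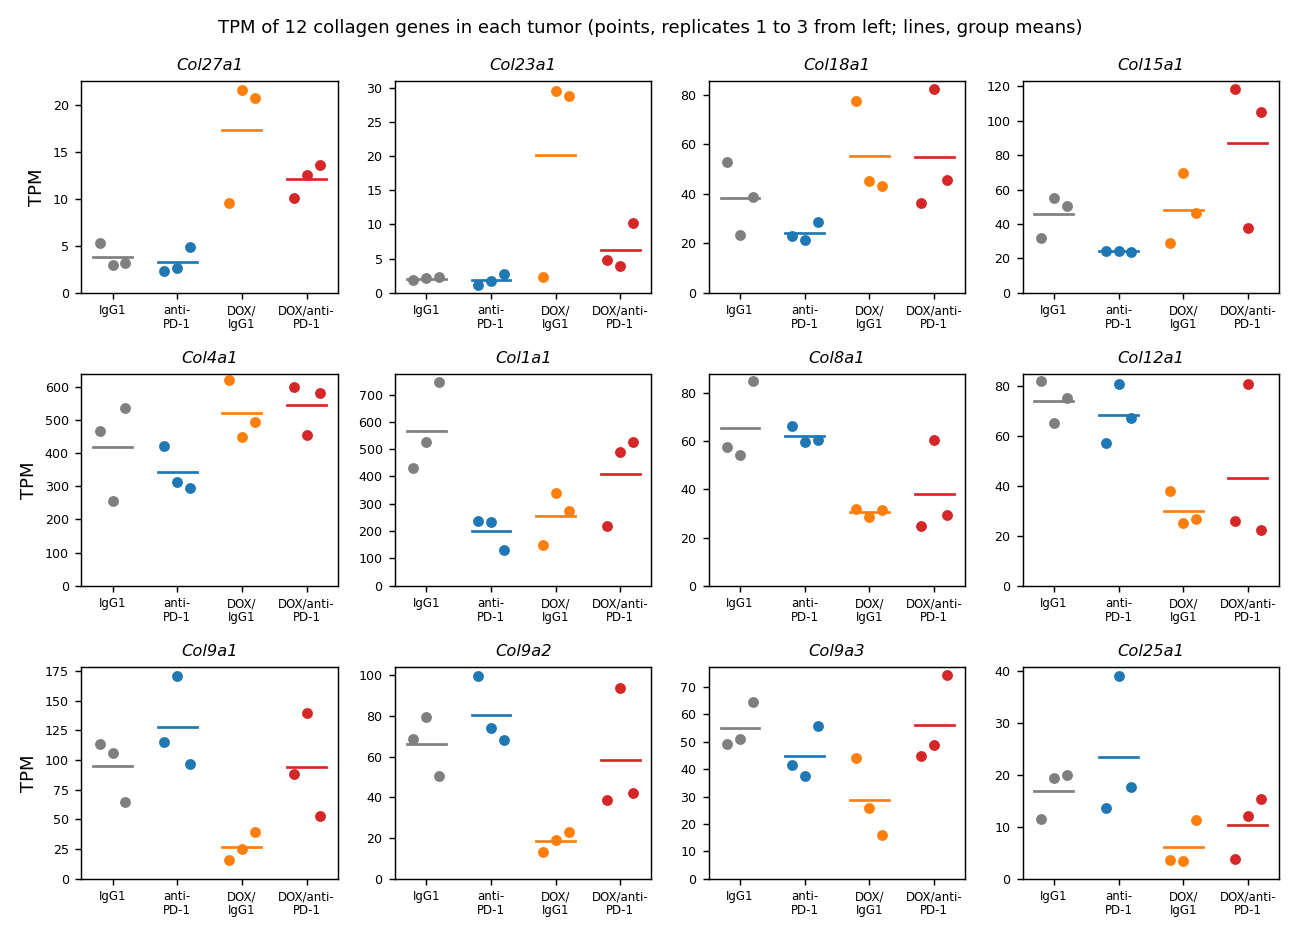
TPM of 12 collagen genes in each tumor (vertical axis, linear, from 0), with points for replicates 1 to 3 from the left and lines for group means. Col27a1 separates the 6 tumors with doxorubicin from the 6 without, and Col9a1, Col9a2, Col12a1 and Col8a1 show DOX/anti-PD-1 replicate 2 among the values of tumors without doxorubicin. For Col9a1, DOX/anti-PD-1 replicate 1 lies among them too.

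Type IV collagen is the network former of basement membranes. Its chains Col4a1 and Col4a2 make the form found in nearly all basement membranes, and Col4a3 to Col4a6 make forms of specialised ones. Col4a1 was at 468, 257 and 535 TPM in the IgG1 tumors, 420.1, 314 and 294 TPM in the anti-PD-1 tumors, 621, 448 and 495 TPM in the DOX/IgG1 tumors and 600.5, 454 and 583 TPM in the DOX/anti-PD-1 tumors. Of the tumors without doxorubicin, IgG1 replicates 1 and 3 reached the range of the 6 doxorubicin tumors and the other 4 lay below it. Col4a2 was at 192, 127 and 204 TPM in the IgG1 tumors, 133, 115 and 97.4 TPM in the anti-PD-1 tumors, 267, 168 and 211 TPM in the DOX/IgG1 tumors and 260.4, 142 and 256 TPM in the DOX/anti-PD-1 tumors. The 3 anti-PD-1 tumors and IgG1 replicate 2 lay below all 6 doxorubicin tumors, and IgG1 replicates 1 and 3 lay among them. The doxorubicin effect was 0.52 ± 0.20 (SE, adjusted p = 0.329) for Col4a1 and 0.60 ± 0.21 (adjusted p = 0.290) for Col4a2 by limma. The exact permutation test of Col4a1 gave p = 0.04. In DOX/anti-PD-1 against anti-PD-1 the log2 fold changes were 0.68 and 0.88, with adjusted p-values of 0.516 and 0.495, and in DOX/IgG1 against IgG1 they were 0.37 and 0.31. Col4a3 was low, at 0.91, 2.16 and 0.98 TPM in the IgG1 tumors, 0.56, 2.18 and 0.69 TPM in the anti-PD-1 tumors, 0, 4.44 and 14.0 TPM in the DOX/IgG1 tumors and 3.99, 3.42 and 3.58 TPM in the DOX/anti-PD-1 tumors, with a doxorubicin effect of 1.06 ± 0.51 (adjusted p = 0.431). Its adjusted p ranged from 0.0674 to 0.679 over all alternatives, and it was lowest without DOX/IgG1 replicate 1, where Col4a3 was listed at 0. Of its exon bases 5.65% overlap a gene on the other strand. Col4a5 and Col4a6 had means of 70.4 and 42.5 TPM and Col4a4 of 2.18 TPM, with doxorubicin effects of 0.07, 0.08 and 0.31.

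Col4a1 and Col4a2 moved together across the 12 tumors, with Pearson's r = 0.910 on the log2 scale. They lie head to head on chromosome 8 with annotated starts 21 bases apart, and their exons share 22 bases on opposite strands, which is 0.295% of the exon bases of Col4a1 and 0.332% of those of Col4a2. Their promoters are shown because the windows of both genes overlap. In RefSeq coordinates (GRCm38.p6) the window of 250 bases before to 50 after the start is chr8:11312777-11313076 on the minus strand for Col4a1 and chr8:11312555-11312854 on the plus strand for Col4a2, and the windows share 78 bases. Each is written 5' to 3' along its own gene, with capitals for matches to the CCAAT box (CCAAT or ATTGG) and the GC box (GGGCGG or CCGCCC).
Col4a1: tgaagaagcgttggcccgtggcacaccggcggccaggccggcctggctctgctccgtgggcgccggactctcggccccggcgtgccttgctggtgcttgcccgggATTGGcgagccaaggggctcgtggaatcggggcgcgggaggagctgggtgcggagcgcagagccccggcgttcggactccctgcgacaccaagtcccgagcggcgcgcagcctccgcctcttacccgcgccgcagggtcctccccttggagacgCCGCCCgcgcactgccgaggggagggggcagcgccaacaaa
Col4a2: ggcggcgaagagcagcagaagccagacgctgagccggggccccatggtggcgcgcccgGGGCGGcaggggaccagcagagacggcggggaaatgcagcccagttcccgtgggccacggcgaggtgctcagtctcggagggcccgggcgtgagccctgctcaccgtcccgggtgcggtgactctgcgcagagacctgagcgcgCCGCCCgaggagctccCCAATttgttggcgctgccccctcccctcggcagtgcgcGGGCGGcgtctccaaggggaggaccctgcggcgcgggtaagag
The Col4a1 window holds 1 CCAAT box and 1 GC box and the Col4a2 window 1 and 3, and neither holds TATAAA. A match is a description of the letters and says nothing of a factor at this place. Of all 32851 promoter windows, 37.4% hold a CCAAT box, 35.7% a GC box and 13.6% TATAAA or TTTATA, and of the 38 windows found for 35 of the 44 collagen genes 34.2%, 60.5% and 13.2% do.

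The FACIT class was led by Col16a1, a collagen of connective tissue next to fibers and basement membranes, followed by Col9a1, Col9a2, Col12a1 and Col9a3. Col9a1, Col9a2 and Col9a3 encode the 3 chains of the type IX collagen that coats cartilage fibrils, and the Col12a1 product binds type I fibers. Col9a1 was at 114, 106 and 64.8 TPM in the IgG1 tumors, 115, 171 and 96.6 TPM in the anti-PD-1 tumors, 16.0, 25.2 and 39.8 TPM in the DOX/IgG1 tumors and 88.5, 139.9 and 53.1 TPM in the DOX/anti-PD-1 tumors. The 3 DOX/IgG1 tumors were the 3 lowest of the 12. DOX/anti-PD-1 replicate 2 lay above all IgG1 tumors, replicate 1 lay among them and replicate 3 below them. The values of Col9a2 were 68.7, 79.7 and 50.6 TPM in the IgG1 tumors, 99.7, 73.8 and 68.0 TPM in the anti-PD-1 tumors, 13.0, 19.0 and 22.9 TPM in the DOX/IgG1 tumors and 38.8, 93.5 and 42.3 TPM in the DOX/anti-PD-1 tumors. Here too the 3 DOX/IgG1 tumors were lowest, DOX/anti-PD-1 replicates 1 and 3 came next, and replicate 2 lay within the range of tumors without doxorubicin. The third chain, Col9a3, was at 49.2, 50.9 and 64.4 TPM in the IgG1 tumors, 41.5, 37.5 and 55.7 TPM in the anti-PD-1 tumors, 44.0, 25.8 and 15.9 TPM in the DOX/IgG1 tumors and 45.0, 48.8 and 74.4 TPM in the DOX/anti-PD-1 tumors, and its DOX/IgG1 tumors lay below the IgG1 tumors while DOX/IgG1 replicate 1 lay within the anti-PD-1 range. The doxorubicin effect was -1.16 ± 0.32 (SE) for Col9a1 (adjusted p = 0.206 by limma, exact permutation p = 0.02) and -1.19 ± 0.28 for Col9a2 (adjusted p = 0.196, exact p = 0.015), and -0.36 ± 0.29 for Col9a3 (adjusted p = 0.648). For Col9a2 the adjusted p over all alternatives ranged from 0.0530 to 0.331, and it was lowest without DOX/anti-PD-1 replicate 2, whose own value goes against the difference.

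None of the type IX genes was called with all tumors in. In DOX/IgG1 against IgG1 the log2 fold changes were -1.82 ± 0.37 for Col9a1, -1.81 ± 0.30 for Col9a2 and -1.02 ± 0.36 for Col9a3 (adjusted p = 0.432, 0.349 and 0.568), and in DOX/anti-PD-1 against anti-PD-1 they were -0.51, -0.56 and 0.30. The interaction by limma over 12 tumors was 1.32, 1.26 and 1.32, each with an unadjusted p below 0.05 and an adjusted p of 0.993. Across the 12 tumors Col9a1 and Col9a2 moved together (r = 0.946), while r was 0.319 for Col9a1 and Col9a3. As deviations from the group means, Col9a1 and Col9a3 had r = -0.872, so within groups the tumor with more Col9a1 tended to have less Col9a3. No p is given for this value. Col9a3 shares 6.07% of its exon bases with Tcfl5 on the other strand, and the strand setting of the counting is not given in the sources used here, so reads of the shared stretch cannot be assigned.

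The promoters of Col9a1 and Col9a2, which moved together but lie on chromosomes 1 and 4, are shown for comparison with the pair above, with the same marks. Col9a1 has 2 RefSeq starts, with windows at chr1:24177360-24177659 and chr1:24194953-24195252, and Col9a2 has its window at chr4:121039316-121039615, all on the plus strand of GRCm38.p6.
Col9a1 first start: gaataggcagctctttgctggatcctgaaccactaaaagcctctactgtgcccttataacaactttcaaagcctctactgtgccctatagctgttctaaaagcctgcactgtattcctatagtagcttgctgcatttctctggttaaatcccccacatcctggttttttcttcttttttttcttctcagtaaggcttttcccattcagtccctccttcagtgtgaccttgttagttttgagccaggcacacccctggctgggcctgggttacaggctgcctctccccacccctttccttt
Col9a1 second start: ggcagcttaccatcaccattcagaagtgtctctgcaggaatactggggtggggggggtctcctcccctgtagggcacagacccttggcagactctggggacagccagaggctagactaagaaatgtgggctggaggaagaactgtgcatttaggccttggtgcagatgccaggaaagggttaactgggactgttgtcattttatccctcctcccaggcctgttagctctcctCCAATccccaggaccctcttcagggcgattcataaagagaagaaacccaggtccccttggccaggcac
Col9a2: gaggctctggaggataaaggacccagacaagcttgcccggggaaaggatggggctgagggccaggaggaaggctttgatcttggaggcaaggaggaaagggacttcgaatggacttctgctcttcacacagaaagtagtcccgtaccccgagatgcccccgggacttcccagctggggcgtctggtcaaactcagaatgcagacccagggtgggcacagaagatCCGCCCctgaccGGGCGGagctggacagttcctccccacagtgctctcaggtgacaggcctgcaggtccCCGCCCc
The first Col9a1 window holds 0 matches, the second 1 CCAAT box, and the Col9a2 window 3 GC boxes. None of the 3 holds ACAAAG or CTTTGT, the core letters bound by SOX factors, which are in 18.7% of all promoter windows and in 13.2% of the collagen windows.

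Col12a1 was at 81.9, 65.1 and 75.1 TPM in the IgG1 tumors, 57.1, 81.0 and 67.1 TPM in the anti-PD-1 tumors, 38.1, 25.0 and 26.5 TPM in the DOX/IgG1 tumors and 26.0, 80.8 and 22.5 TPM in the DOX/anti-PD-1 tumors. Of the 6 doxorubicin tumors, 5 lay below all 6 tumors without doxorubicin, and DOX/anti-PD-1 replicate 2 lay in the range of the latter. Its doxorubicin effect was -1.09 ± 0.27 (SE, adjusted p = 0.198 by limma, exact permutation p = 0.015). Over all alternatives the adjusted p ranged from 0.0343 to 0.327. It was 0.0827 without DOX/IgG1 replicate 1, and it was lowest without DOX/anti-PD-1 replicate 2, which goes against the difference. Col16a1 was at 95.2, 146 and 108 TPM in the IgG1 tumors, 92.6, 78.5 and 78.9 TPM in the anti-PD-1 tumors, 80.6, 106 and 157 TPM in the DOX/IgG1 tumors and 104, 148 and 85.9 TPM in the DOX/anti-PD-1 tumors, with the anti-PD-1 tumors below the IgG1 tumors and overlap between doxorubicin and no doxorubicin, and its doxorubicin effect was 0.17 ± 0.20 (adjusted p = 0.774). Col14a1, which like Col12a1 binds fibers, ranged from 20.5 to 54.6 TPM with a doxorubicin effect of 0.03, which turned negative with median-of-ratios scaling. Col20a1 reached at most 3.89 TPM, and Col19a1 and Col22a1 stayed too low to be tested.

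Markers of cartilage cells were low in these tumors. Of 6 chondrocyte markers, Matn1 was listed at 0 in all 12 tumors, Matn3 in 11 and Hapln1 did not exceed 0.320 TPM. The summed level of the 6 markers, with Lect1 the most abundant, was 16.0, 1.29 and 5.36 TPM in the IgG1 tumors, 5.25, 4.22 and 13.0 TPM in the anti-PD-1 tumors, 5.57, 30.4 and 16.8 TPM in the DOX/IgG1 tumors and 12.4, 11.9 and 16.7 TPM in the DOX/anti-PD-1 tumors. It was lowest in IgG1 replicate 2 and highest in DOX/IgG1 replicate 2. Acan, the large proteoglycan of cartilage, reached 13.7 TPM in DOX/IgG1 replicate 2 and at most 1.94 TPM in the others. The part of cartilage cells in the collagen values was not tested.

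The multiplexins are Col15a1 (ENSMUSG00000028339, chr4:47208161-47313167 on the plus strand of GRCm38), found in the outer zone of basement membranes of vessels, muscle and fat, and Col18a1, the precursor of endostatin. Col15a1 was at 31.6, 55.0 and 50.7 TPM in the IgG1 tumors, 24.0, 24.4 and 23.9 TPM in the anti-PD-1 tumors, 29.0, 69.5 and 46.2 TPM in the DOX/IgG1 tumors and 118, 37.6 and 105 TPM in the DOX/anti-PD-1 tumors. The 3 anti-PD-1 tumors were the 3 lowest of the 12 and differed little from each other, and DOX/anti-PD-1 replicates 1 and 3 were the highest, with replicate 2 in the IgG1 range. For Col18a1 the values were 53.0, 23.4 and 38.8 TPM in the IgG1 tumors, 22.9, 21.6 and 28.7 TPM in the anti-PD-1 tumors, 77.6, 45.2 and 43.2 TPM in the DOX/IgG1 tumors and 36.3, 82.6 and 45.8 TPM in the DOX/anti-PD-1 tumors. DOX/IgG1 replicate 1 and DOX/anti-PD-1 replicate 2 stood highest, and the IgG1 range overlapped those of both doxorubicin groups. The tumor highest for Col18a1 in each doxorubicin group was thus the lowest of its group for Col15a1. The doxorubicin effect was 0.84 ± 0.35 (SE, adjusted p = 0.360 by limma, exact permutation p = 0.095) for Col15a1 and 0.80 ± 0.26 (adjusted p = 0.248) for Col18a1. Against anti-PD-1, DOX/anti-PD-1 tumors had log2 fold changes of 1.65 ± 0.40 (adjusted p = 0.479) and 1.06 ± 0.32 (adjusted p = 0.489), and DOX/IgG1 against IgG1 gave 0.03 and 0.54. The value of Col15a1 in that arm turned negative with median-of-ratios scaling. Over all alternatives the adjusted p of Col15a1 in DOX/anti-PD-1 against anti-PD-1 ranged from 0.0787 to 0.837, and it was lowest without DOX/anti-PD-1 replicate 2, the low tumor of its group. The interaction of Col15a1 was 1.62 ± 0.58 (adjusted p = 0.993).

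Adipocyte markers, of a cell type with a basement membrane that holds Col15a1, were also high in some of these tumors. The 6 of 6 listed markers, Adipoq the most abundant, summed to 42.4, 181 and 139 TPM in the IgG1 tumors, 51.9, 48.5 and 77.2 TPM in the anti-PD-1 tumors, 97.0, 413 and 73.2 TPM in the DOX/IgG1 tumors and 507, 116 and 116 TPM in the DOX/anti-PD-1 tumors. DOX/anti-PD-1 replicate 1 and DOX/IgG1 replicate 2 were highest, and these had the most Col15a1 of their groups, while DOX/anti-PD-1 replicate 3 had high Col15a1 with a sum below that of IgG1 replicates 2 and 3. Skeletal muscle markers (6 of 6 listed, Acta1 the most abundant) summed to 103, 26.0 and 461 TPM in the IgG1 tumors, 472, 42.8 and 19.3 TPM in the anti-PD-1 tumors, 39.5, 122 and 172 TPM in the DOX/IgG1 tumors and 795, 0 and 144 TPM in the DOX/anti-PD-1 tumors, with all 6 listed at 0 in DOX/anti-PD-1 replicate 2, the tumor lowest in Col15a1 of its group. In contrast, IgG1 replicate 2 had the lowest muscle sum of its group and the most Col15a1. Endothelial markers (6 of 6 listed, Pecam1 the most abundant) summed to between 75.7 and 161 TPM. The part of these cells in the multiplexin values was not tested.

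Among the other classes, Col23a1, a transmembrane collagen of epithelial cell surfaces, had, like Col27a1, an exact permutation p at the smallest value the design allows. Col23a1 was picked for its small limma p in the same tumors, so the exact p is not separate support. Col23a1 was at 1.83, 2.15 and 2.25 TPM in the IgG1 tumors, 1.12, 1.73 and 2.72 TPM in the anti-PD-1 tumors, 2.34, 29.5 and 28.7 TPM in the DOX/IgG1 tumors and 4.82, 3.86 and 10.2 TPM in the DOX/anti-PD-1 tumors. DOX/IgG1 replicates 2 and 3 stood far above all other tumors, and DOX/IgG1 replicate 1 lay below anti-PD-1 replicate 3. Its doxorubicin effect was 1.77 ± 0.49 (SE, adjusted p = 0.211 by limma, exact permutation p = 0.005). The alternatives gave an adjusted p from 0.0304 to 0.360, and it was lowest without DOX/IgG1 replicate 1, which goes against the difference. Salivary gland markers, which can come from gland tissue next to a mammary tumor, were also highest in DOX/IgG1. The 6 of 6 listed markers, Amy1 the most abundant, summed to 6.41, 16.8 and 5.93 TPM in the IgG1 tumors, 22.4, 5.40 and 22.5 TPM in the anti-PD-1 tumors, 60.1, 98.0 and 118 TPM in the DOX/IgG1 tumors and 19.7, 16.0 and 26.2 TPM in the DOX/anti-PD-1 tumors. Bpifa2 was listed at 0 in the 9 tumors outside DOX/IgG1 and at 14.4, 21.3 and 53.7 TPM within it, and limma called it and Smr3a in DOX/IgG1 against IgG1 (adjusted p = 0.0334 for each), and Bpifa2 in the interaction (-4.73, adjusted p = 0.0909). Both were at 0 in all 3 IgG1 tumors, so they met the minimum level in that comparison through the DOX/IgG1 tumors alone and had no spread in IgG1, and the calls say no more than these values. Smr3a was at 16.6, 10.2 and 14.8 TPM there, at 2.76 TPM in anti-PD-1 replicate 3 and at 0 in the other tumors. Dcpp1 and Mucl2 were listed at 0 in 10 tumors each. The sum was highest in DOX/IgG1 replicates 2 and 3, as were Col23a1 and Col27a1, while in DOX/anti-PD-1 it lay at 16.0 to 26.2 TPM with Col27a1 above every tumor without doxorubicin. The part of salivary tissue in these collagen values was not tested.

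Col8a1, a short-chain collagen of hexagonal networks made by vessel wall cells, was at 57.7, 54.3 and 84.9 TPM in the IgG1 tumors, 66.4, 59.5 and 60.7 TPM in the anti-PD-1 tumors, 32.0, 28.5 and 31.5 TPM in the DOX/IgG1 tumors and 25.0, 60.3 and 29.5 TPM in the DOX/anti-PD-1 tumors. Of the 6 doxorubicin tumors, 5 lay below all tumors without doxorubicin, and DOX/anti-PD-1 replicate 2 lay among them. Its doxorubicin effect was -0.92 ± 0.21 (SE, adjusted p = 0.171 by limma, exact permutation p = 0.01). With median-of-ratios scaling the value was -1.03 (adjusted p = 0.0885), so that 1 collagen was called higher and 1 lower in place of 1 and 0. The share of all genes called with that scaling is not given here. Over all alternatives the adjusted p ranged from 0.0522 to 0.321, and it was lowest without DOX/anti-PD-1 replicate 2. DOX/anti-PD-1 replicate 2 thus lay with the tumors without doxorubicin for Col9a1, Col9a2, Col12a1 and Col8a1, but not for Col27a1. For Col9a1, DOX/anti-PD-1 replicate 1 lay in their range too. Col25a1, a transmembrane collagen known from neurons and developing muscle, was at 11.5, 19.3 and 19.8 TPM in the IgG1 tumors, 13.6, 38.9 and 17.5 TPM in the anti-PD-1 tumors, 3.63, 3.34 and 11.4 TPM in the DOX/IgG1 tumors and 3.74, 12.0 and 15.3 TPM in the DOX/anti-PD-1 tumors, with overlap of the ranges. Its doxorubicin effect was -1.31 ± 0.38 (adjusted p = 0.220, exact permutation p = 0.015).

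Col7a1, the anchoring fibril collagen that ties basement membrane to stroma, was at 23.6, 11.0 and 23.8 TPM in the IgG1 tumors, 19.8, 9.24 and 4.13 TPM in the anti-PD-1 tumors, 10.8, 15.2 and 17.9 TPM in the DOX/IgG1 tumors and 32.3, 21.9 and 37.5 TPM in the DOX/anti-PD-1 tumors. The DOX/anti-PD-1 tumors lay above all anti-PD-1 tumors and above all DOX/IgG1 tumors, and overlapped the IgG1 tumors. Its log2 fold change was 1.58 ± 0.48 (SE, adjusted p = 0.489) in DOX/anti-PD-1 against anti-PD-1 and -0.34 in DOX/IgG1 against IgG1, with an interaction of 1.92 ± 0.66 (adjusted p = 0.993) by limma. Col6a3, the largest chain of the beaded filaments around cells, was at 132, 88.0 and 141 TPM in the IgG1 tumors, 96.0, 63.7 and 65.3 TPM in the anti-PD-1 tumors, 56.6, 134 and 169 TPM in the DOX/IgG1 tumors and 121, 90.4 and 144 TPM in the DOX/anti-PD-1 tumors, with overlap of all 4 groups and a doxorubicin effect of 0.27 ± 0.27 (adjusted p = 0.730). Col28a1, left unclassified, was at 1.89, 1.44 and 2.98 TPM in the IgG1 tumors, 2.32, 1.79 and 6.43 TPM in the anti-PD-1 tumors, 6.43, 0.77 and 0.23 TPM in the DOX/IgG1 tumors and 2.66, 2.97 and 2.41 TPM in the DOX/anti-PD-1 tumors. It was highest in anti-PD-1 replicate 3 and DOX/IgG1 replicate 1 and lowest in DOX/IgG1 replicates 2 and 3, with a doxorubicin effect of -0.21 ± 0.42 (adjusted p = 0.878). The remaining tested genes of these classes were Col6a1, Col6a2, Col6a4, Col6a6, Col8a2, Col10a1, Col13a1 and Col17a1, with doxorubicin effects between -0.12 and 0.57. Col6a5 and Col26a1 were not tested, with at most 0.550 and 1.31 TPM.

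The comparisons of anti-PD-1 with IgG1 address what checkpoint blockade does alone and on top of doxorubicin. Alone, anti-PD-1 went with lower mean levels of most collagens. limma called 0 of 37 tested collagens in anti-PD-1 against IgG1, and 0% of all 13692 genes tested. The value was higher for 8 and lower for 29, and at an unadjusted p below 0.05 there were 0 higher and 4 lower (Col1a1, Col15a1, Col6a3 and Col4a2), beside 1.75% and 2.85% of all genes. The collagen median was -0.24 beside -0.03, with class medians of -0.71 for multiplexins, -0.36 for fibrillar, -0.23 for basement membrane and -0.12 for FACIT genes. Col5a2 and Col4a6 turned slightly higher with median-of-ratios scaling. Markers of several cell types were also lower in this comparison, with medians of -0.85 for adipocytes and -0.30 for fibroblasts (6 of 6 lower each), -0.41 for pericytes (5 of 6), -0.21 for luminal epithelium (6 of 6) and -0.47 for leukocytes (4 of 4 tested). The part of these cells in the collagen values was not tested. On top of doxorubicin the value was higher for most members. When the DOX/anti-PD-1 tumors were set against those with DOX/IgG1, limma called 0 of 38 collagens and 0% of all 13946 genes tested. The value was higher for 25 and lower for 13, with 5 higher and 0 lower at an unadjusted p below 0.05, beside 1.81% and 2.89% of all genes. The 5 higher collagens were Col9a1 (1.74 ± 0.43), Col9a2 (1.54 ± 0.39), Col9a3 (1.03 ± 0.39), Col7a1 (1.01 ± 0.33) and Col5a2 (0.78 ± 0.27), log2 fold changes with SE and adjusted p-values of at least 0.988. The collagen median was 0.17 beside -0.04, and Col4a2 and Col16a1 turned from slightly lower to slightly higher with that scaling. Of the cell type markers, salivary genes were lower for 4 of 4 tested (median -2.42, where Bpifa2 and Smr3a are above 0 only on the DOX/IgG1 side) and leukocyte genes for 5 of 5 (-0.17), and basal epithelial genes were higher for 5 of 6 (0.25), with their part in the collagen values not tested.

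Over both chemotherapy arms, the median anti-PD-1 effect of the collagens was close to that of all genes. limma called 0 of 40 collagens and 0% of all genes tested, and at an unadjusted p below 0.05 there were 2 higher (Col9a1 and Col9a2) and 0 lower, beside 1.78% and 2.91%. The median was -0.04 beside -0.03. Col9a1 had an effect of 1.09 ± 0.32 (SE, adjusted p = 0.801, exact permutation p = 0.02) and Col9a2 of 0.91 ± 0.28 (adjusted p = 0.832, exact permutation p = 0.025). The interaction asks whether the doxorubicin difference is another one under anti-PD-1 than under IgG1. limma called 0 of 40 collagens, beside 0.00679% of all 14735 genes tested, and 8 had a positive and 0 a negative value at an unadjusted p below 0.05, beside 2.26% and 2.45% of all genes. These 8 were Col1a1, Col3a1, Col6a2, Col7a1, Col9a1, Col9a2, Col9a3 and Col15a1, with values from 1.00 to 2.18. In all, the value was positive for 30 and negative for 10 of the 40, with a median of 0.44 beside -0.01 over all genes, and the counts were equal with median-of-ratios scaling. Markers with mostly positive values in the interaction were those of adipocytes (6 of 6, median 1.09), fibroblasts (5 of 6, 0.63) and pericytes (5 of 6, 0.39). Luminal epithelium (6 of 6, 0.31) and leukocytes (5 of 5 tested, 0.19) were also positive. With median-of-ratios scaling, 4 of 6 markers each were positive for skeletal muscle (median 1.35), endothelium (0.33) and basal epithelium (0.30). Salivary genes were negative for 4 of 4 tested (-3.44). Of these, Bpifa2 (-4.73) and Smr3a (-4.51) met the minimum level through the DOX/IgG1 tumors, where they are high. Prol1 was at -2.37 and Amy1 at -1.01. The part of all these cells in the collagen values was not tested. By class the medians were 1.07 for multiplexins, 0.89 for fibrillar, 0.46 for FACIT and 0.29 for basement membrane genes. The 7 comparisons are drawn from the same 12 tumors and share groups, so they are not independent of each other.

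Chains that assemble into the same collagen were compared over the 12 tumors on the log2 scale, in 13 pairs, with p from 100000 permutations, two-sided and adjusted over the 13. The permutations ran over all tumors without regard to group, so differences between groups that both chains share enter r and its p. For Col4a1 and Col4a2, Pearson's r = 0.910 (permutation p = 4.0e-05, adjusted 2.6e-04) and Spearman's rho = 0.965 (p = 1.0e-05, adjusted 1.3e-04). Without the 2 tumors farthest from the median of Col4a1 it was r = 0.943, and over deviations from the group means r = 0.868. The p of rho is the smallest the permutations can give. Col9a1 and Col9a2 had r = 0.946 (permutation p = 3.0e-05, adjusted 2.6e-04) and Spearman's rho = 0.916 (p = 9.0e-05, adjusted 5.8e-04), with r = 0.857 without the 2 farthest tumors, DOX/IgG1 replicates 1 and 2, and r = 0.747 over deviations. For Col5a1 and Col5a2, r = 0.857 (permutation p = 4.7e-04, adjusted 0.00153) and Spearman's rho = 0.853 (p = 7.8e-04, adjusted 0.00338), with r = 0.798 without the farthest 2 and r = 0.874 over deviations. The pair Col6a2 and Col6a3 had r = 0.871 (permutation p = 2.8e-04, adjusted 0.00121) and Spearman's rho = 0.818 (p = 0.00197, adjusted 0.00640), with r = 0.769 without the farthest 2 and r = 0.859 over deviations. Type I collagen is built from Col1a1 and Col1a2, and these had r = 0.719 (permutation p = 0.00693, adjusted 0.0129) and Spearman's rho = 0.636 (p = 0.0302, adjusted 0.0654), with r = 0.619 without IgG1 replicate 3 and anti-PD-1 replicate 3 and r = 0.735 over deviations. The relations of Col4a3 with Col4a4 (r = 0.783), Col6a1 with Col6a2 (0.796) and Col6a1 with Col6a3 (0.714) had an adjusted p of 0.00732, 0.00731 and 0.0183, while without the 2 farthest tumors r was 0.448, 0.590 and 0.439 (permutation p = 0.191, 0.0736 and 0.207), and over deviations from the group means it was 0.911, 0.848 and 0.708. No relation passed for Col9a1 or Col9a2 with Col9a3, Col4a5 with Col4a6, Col8a1 with Col8a2, or Col11a1 with Col11a2, for which r ranged from -0.383 to 0.511. By Spearman's rho, counted after the values were seen, 4 of the 13 pairs had an adjusted p below 0.05, beside 8 by Pearson's r. The share of other gene pairs that pass is not given, so these counts do not set partner chains apart from other genes. Starts lie 72 bases apart for Col4a3 and Col4a4 and 1309 bases apart for Col4a5 and Col4a6.

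**Figure D4:**
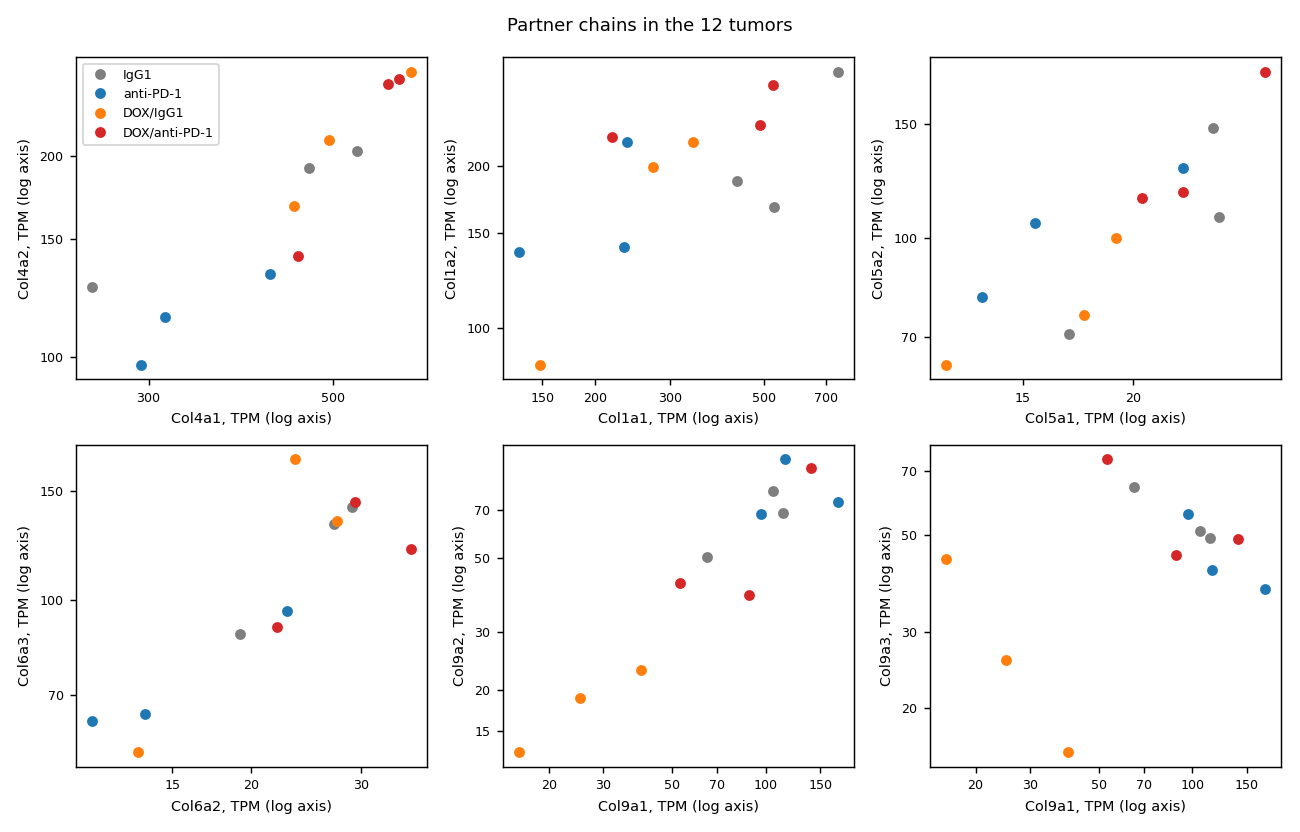
TPM of partner chains in the 12 tumors (points, colored by group), both axes logarithmic. Col4a1 with Col4a2 and Col9a1 with Col9a2 lie along a line, and Col9a1 with Col9a3 does not.

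Genes that fold, process, bind or degrade collagen were taken from 6 lists, and in the doxorubicin effect limma called 0 of them. Their counts are at an unadjusted p below 0.05, with the percentages of all genes given above. Proteoglycans that bind fibrils had a median of 0.98, with 4 of 6 higher. Bgn, the most abundant, was at 437, 388 and 869.7 TPM in the IgG1 tumors, 323, 249 and 441 TPM in the anti-PD-1 tumors, 521, 1323 and 863 TPM in the DOX/IgG1 tumors and 341, 1035 and 815 TPM in the DOX/anti-PD-1 tumors, and its doxorubicin effect was 0.84 ± 0.31 (SE, adjusted p = 0.319). Dcn, which binds type I fibers, was at 95.4, 72.9 and 127 TPM in the IgG1 tumors, 90.9, 98.2 and 93.7 TPM in the anti-PD-1 tumors, 76.8, 619 and 323 TPM in the DOX/IgG1 tumors and 205, 175 and 201 TPM in the DOX/anti-PD-1 tumors, with 1.20 ± 0.36 (adjusted p = 0.235). For Dcn only DOX/IgG1 replicate 1 lay in the range of the tumors without doxorubicin, and for Bgn replicates 1 and 3 of both doxorubicin groups did. Proteases that degrade collagen had a median of 0.75 over 5 tested genes, with 4 higher. Of these Mmp9 reached 1 TPM in 5 tumors with doxorubicin and 1 without, and Mmp14, a membrane-bound collagenase, was at 164, 187 and 181 TPM in the IgG1 tumors, 126, 63.9 and 80.0 TPM in the anti-PD-1 tumors, 214, 158 and 235 TPM in the DOX/IgG1 tumors and 128, 197 and 419 TPM in the DOX/anti-PD-1 tumors (doxorubicin effect 0.75 ± 0.29, adjusted p = 0.335). Enzymes that process and cross-link procollagen had a median of 0.27 over 12 tested, with 2 higher and 1 lower, and folding and modifying enzymes a median of -0.02 over 18, with 1 higher and 1 lower. P4hb, a subunit of the prolyl hydroxylase that stabilises the helix, was the most abundant of the latter, at 639.6 TPM on average. Collagen receptors had a median of 0.14 over 9 tested, with 1 higher and 0 lower, and Itgb1 was the most abundant. Other basement membrane components, with Lamb1 the most abundant, had a median of 0.16 over 11, with 2 higher and 0 lower, beside 0.42 for the 6 type IV collagen genes.

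Fibroblast markers (6 of 6 listed, Postn the most abundant, 0 listed at 0 in any tumor) summed to 543, 694 and 1169.5 TPM in the IgG1 tumors, 672, 523 and 444 TPM in the anti-PD-1 tumors, 382, 591 and 445 TPM in the DOX/IgG1 tumors and 633, 738 and 502 TPM in the DOX/anti-PD-1 tumors. IgG1 replicate 3, with the highest fibrillar sum, also had the highest fibroblast sum, while the lowest fibroblast sum was in DOX/IgG1 replicate 1 and the lowest fibrillar sum in anti-PD-1 replicate 3. In the doxorubicin effect Postn, which leads this sum, was at -0.49 and the other 5 markers lay between 0.28 and 0.56. Pericyte and smooth muscle markers (6 of 6 listed, Myh11 the most abundant) summed to between 84.4 and 258 TPM, basal mammary markers (6 of 6 listed, Sox10 the most abundant) to between 119 and 234 TPM and leukocyte markers (6 of 6 listed, Ptprc the most abundant) to between 97.7 and 249 TPM. In the doxorubicin effect the medians of the marker lists were 0.92 for adipocytes, 0.97 for the 3 tested chondrocyte genes, 1.49 for the 4 tested salivary genes, 0.41 for fibroblasts, 0.25 for pericytes, 0.23 for basal epithelium, 0.18 for leukocytes, 0.08 for endothelium, -0.06 for skeletal muscle and -0.21 for luminal epithelium. The salivary and chondrocyte values rest in part on genes that met the minimum from one side, since Bpifa2 reached 1 TPM only in the 3 DOX/IgG1 tumors, Smr3a in these and 1 other tumor, and Acan only in 4 tumors with doxorubicin. limma called 0 of these markers there, with 1 adipocyte, 1 chondrocyte, 3 salivary, 1 endothelial and 1 luminal gene higher and 1 luminal gene lower at an unadjusted p below 0.05. The part of the cell types in the collagen values was not tested.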

How the data were processed

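RNA of 12 PyMT tumors, 3 per group, was sequenced. The authors trimmed reads with skewer, used STAR for alignment to mm10 and RSEM for gene levels (versions not given in the sources used here), and deposited log2(TPM + 1), a log2 value of TPM, for each gene and tumor. The log2 step was reversed for levels. No counts were available here, so depth is unknown. Groups came from the sample labels. The members and lists were chosen with earlier results of these data known.

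Genes at 1 TPM or more in at least 3 of the tumors compared were tested with limma 3.58.1 (R 4.3.3) on log2(TPM + 1), a pseudocount of 1, with moderated variances that follow a mean-variance trend. Tests were two-sided with Benjamini-Hochberg adjustment over all genes tested, and calls needed an adjusted p below 0.1 together with a log2 fold change above 1 or below -1. The scripts were tested on simulated data. The rule for naming genes took the most abundant gene of each class, Col9a1, Col15a1, called genes, the 6 and 3 genes of smallest p in the doxorubicin and anti-PD-1 effects, partner chains, and of other lists the called and most abundant genes. Other genes named by an unadjusted p, by a left-out tumor or for their markers were chosen after their values were seen. Single genes were compared with an exact permutation test, over 20 regroupings for 3 tumors against 3 (smallest p 0.1) and 400 within strata for 12 tumors (smallest p 0.005). For genes named by a small limma p, the exact p comes from the same tumors, is unadjusted and is not separate support. p-values measure the spread between tumors. The paper does not state whether the 3 tumors of a group came from different mice.

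Gene coordinates are those of GENCODE vM21 (44 of 44 genes matched by identifier) and promoters those of RefSeq on GRCm38.p6 (35 of 44 genes). Alternatives changed the pseudocount, minimum, scaling, trend and replicate block, and left out each tumor.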

Additional observations from a re-analysis of the deposited data

How the results depend on the processing

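The number of collagens called depended on the processing for the doxorubicin effect. It was 1 as reported, 1 with a pseudocount of 0.1, 1 with a minimum mean of 5 TPM, 2 (Col27a1 and Col8a1) with median-of-ratios scaling, 0 without a minimum, 0 without a mean-variance trend, and from 0 to 4 when each tumor was left out in turn. With the replicate number as a block it was 0, and the adjusted p of Col27a1 by limma was 0.108, within a range of 0.0141 to 0.253 over all its alternatives. The replicate numbers did not pair the tumors, since deviations of tumors with the same number from their group means had correlations from -0.096 to 0.134, and the block is given for completeness. Leaving out each tumor gave 0 to 4 calls in DOX/IgG1 against IgG1 and 0 to 1 in DOX/anti-PD-1 against anti-PD-1, and 0 in the other 4 comparisons. The share of all genes called is given for the reported fits only. Counts of collagens called under the alternatives therefore cannot be set against those of other genes. The count of partner pairs was 8 as reported, 8 with median-of-ratios scaling, 7 on TPM without logs and 4 by Spearman's rho, a count added after the values were seen. Col27a1, Col23a1, Col8a1, Col12a1, Col9a1 and Col9a2 kept the sign of their doxorubicin effect under every alternative run. The log2 ratios of the class sums were also computed without each tumor, which was chosen after the values were seen, and ranged from 0.80 to 0.99 for multiplexins, 0.40 to 0.57 for basement membrane, -0.64 to -0.33 for FACIT and -0.22 to 0.04 for fibrillar collagens, so that the fibrillar value did not keep its sign. A fit without DOX/IgG1 replicate 1 and DOX/anti-PD-1 replicate 2 together was also run after the values were seen, and because one of these tumors was picked by its collagen values, its calls are not reported. Fitting all 12 tumors together left the counts of the 4 pairwise comparisons at 0. Limits are the 3 tumors in each group, the unknown depth and the bulk tissue, and the doxorubicin comparisons also differ in tumor diameter at the start, antibody dose and, by the paper, dosing schedule.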
